A study of Homo sapiens with 6 samples.

Results

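Antisense long noncoding RNAs, whose genes are named after the gene they accompany, were followed in the human neuroblastoma line SK-N-BE after knockdown of the long noncoding RNA CyCoNP (LINC02381). All 6 libraries came from cells that had been differentiated for 1.5 days in medium with 10 μM retinoic acid, 3 after transfection with a pool of siRNAs against CyCoNP (si-CyCoNP) and 3 after a scrambled control siRNA (si-SCR). The members were selected on measured values: a long noncoding RNA gene was taken when its symbol ended in -AS and a digit and its mean over the 6 deposited FPKM columns (fragments scaled to transcript length and library depth) was at least 1, which left out HOXC-AS1 by name. Of 1811 genes with such a name, 187 met the rule, 905 had no count in any library, and 13966 of the 60676 genes in the tables were tested in all. The selection used the level over both groups and not the difference between them, although 21 members had a si-SCR mean under 1 FPKM and 12 a si-CyCoNP mean under 1 FPKM. The sense partner of a member is the gene whose symbol stands before the -AS, and each of the 186 members with such a gene was set beside it.

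A natural antisense transcript is copied from the strand opposite to a neighbouring gene, which is often a protein-coding gene. Where both genes start close together and point away from each other, they often share a stretch of open chromatin, and the antisense RNA is then a divergent transcript of the partner's promoter. Where the genes meet at their ends or lie inside each other, their RNAs can share complementary sequence, and some antisense RNAs are known to act on the partner in cis. In sympathetic neurons and neuroblastoma, several transcription factors that set cell identity, among them HAND2, GATA2, GATA3 and TBX2, have such an antisense neighbour.

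By the GENCODE v44 annotation of GRCh38, 183 members lay on the opposite strand to the partner and 3 on the same strand, and 183 of the partners were protein-coding. In 84 pairs the start sites lay within 1000 bases of each other on opposite strands (head to head), 35 pairs overlapped at their 3' ends (tail to tail), in 26 the antisense gene lay wholly inside the partner, 36 overlapped in another way, and 2 lay on opposite strands without overlap. Exons of member and partner overlapped in 143 pairs. HOXD-AS2 has no gene of its stem's name.

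The promoters of 5 members are shown because the results below turn on these pairs: GATA2-AS1, which moved against its partner, HAND2-AS1, which moved with it, and 3 head to head members that rose beside a partner that did not pass. The windows are those of RefSeq on GRCh38.p14, from 250 bases before to 50 bases after the start, written 5' to 3' on the strand of the antisense gene: chr3:128488953-128489252 on the plus strand, chr4:173528350-173528649 on the plus strand, chr19:35545980-35546279 on the minus strand, chr5:78360492-78360791 on the minus strand and chr2:27356515-27356814 on the plus strand. Capitals mark every match on either strand to a motif. The GC box was searched with the letters GGGCGG. The box named CCAAT was searched by its name. For the TATA box the letters were TATAAA. The site of GATA factors was searched with the letters AGATAA. For the E-box they were CAGATG. No motif contains another.
GATA2-AS1: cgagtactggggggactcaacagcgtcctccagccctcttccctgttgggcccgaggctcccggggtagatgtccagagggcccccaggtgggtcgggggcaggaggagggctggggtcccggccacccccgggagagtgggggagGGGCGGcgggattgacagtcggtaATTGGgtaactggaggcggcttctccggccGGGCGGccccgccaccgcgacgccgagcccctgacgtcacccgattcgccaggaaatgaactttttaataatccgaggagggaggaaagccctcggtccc
HAND2-AS1: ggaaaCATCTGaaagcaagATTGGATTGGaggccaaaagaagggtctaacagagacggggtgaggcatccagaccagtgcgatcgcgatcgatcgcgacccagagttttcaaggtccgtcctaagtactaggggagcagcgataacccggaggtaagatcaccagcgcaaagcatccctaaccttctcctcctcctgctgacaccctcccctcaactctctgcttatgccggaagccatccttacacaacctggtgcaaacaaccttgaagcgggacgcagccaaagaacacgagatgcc
TMEM147-AS1: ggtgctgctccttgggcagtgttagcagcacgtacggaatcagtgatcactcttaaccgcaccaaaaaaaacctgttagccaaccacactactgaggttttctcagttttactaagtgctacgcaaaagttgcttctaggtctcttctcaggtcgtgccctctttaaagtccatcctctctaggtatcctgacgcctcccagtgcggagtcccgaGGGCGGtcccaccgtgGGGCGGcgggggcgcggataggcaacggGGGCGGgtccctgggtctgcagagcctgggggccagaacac
SCAMP1-AS1: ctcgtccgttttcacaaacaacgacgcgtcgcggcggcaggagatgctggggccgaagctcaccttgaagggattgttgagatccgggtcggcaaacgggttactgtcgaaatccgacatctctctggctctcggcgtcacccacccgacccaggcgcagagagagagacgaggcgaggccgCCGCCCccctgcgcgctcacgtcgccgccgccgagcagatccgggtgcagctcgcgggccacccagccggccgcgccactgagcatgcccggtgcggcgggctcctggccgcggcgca
GTF3C2-AS2: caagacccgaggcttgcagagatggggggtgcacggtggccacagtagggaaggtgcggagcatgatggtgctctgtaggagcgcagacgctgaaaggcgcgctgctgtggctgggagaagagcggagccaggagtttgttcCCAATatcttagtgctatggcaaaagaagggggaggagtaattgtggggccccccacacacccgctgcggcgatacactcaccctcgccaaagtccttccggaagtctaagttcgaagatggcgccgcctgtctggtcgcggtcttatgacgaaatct

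The GATA2-AS1 window held 2 GC boxes and 1 CCAAT box, and the HAND2-AS1 window held 2 CCAAT boxes and 1 E-box and no GC box. The TMEM147-AS1 window held 3 GC boxes. The SCAMP1-AS1 window shared 175 bases with the promoter window of SCAMP1, and that of GTF3C2-AS2 shared 100 bases with that of GTF3C2. None of the 5 held the TATA box or the GATA factor site. Over the 144 members with a window in the table, the median GC content was 63.5%, against 58.3% over all 27305 windows, and 54.9% held a GC box against 44.6% of all. A CCAAT box stood in 41.7% of member windows and 35.7% of all, a TATA box in 7.64% and 12%, a GATA factor site in 7.64% and 10.5%, and the E-box in 11.1% and 14.8%. Among the 67 head to head members with a window, 61.2% held a GC box and 1.49% a TATA box, and in 25 of the 65 head to head pairs with both windows the windows overlapped. The members were selected for expression and the 27305 windows were not. The part of that selection in the differences between members and all windows was not tested. A match is a description of the letters and not a binding site.

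The members were read at low depth. Total counts ran from 3762009 to 4799407 per library, and the members together took between 0.227% and 0.243% of them, from 8834 to 11648 counts. These are totals of the deposited counts. The study's methods give a far higher average number of reads per sample, and the sources used here do not explain the gap. A member had a median of 129 counts over the 6 libraries, against 654 over all tested genes, and 52 members had fewer than 60. The standard error of a member's log2 fold change was 0.335 at the median, against 0.157 over all tested genes. Counting kept the strands apart: of genes lying wholly inside exons of an opposite-strand gene 29.9% (239 of 800) had a count, against 5.73% (72 of 1257) of those inside exons of a same-strand gene (Fisher's exact test, two-sided, p = 1.16e-49). The target, LINC02381, was counted 274, 208 and 315 times in si-SCR against 20, 30 and 12 in si-CyCoNP. All 9 noradrenergic and neuronal markers examined were abundant in all libraries, with the lowest sum, 2645 counts, for GAP43, and 7 of them passed as lower, with log2 fold changes from -1.24 (CHGA) to -0.36 (DBH). Of the 4 markers of other cells given here, PECAM1 had no count, PTPRC had 5 counts and EPCAM 33 counts over the 6 libraries. The fibroblast marker COL1A1 had 15, 21 and 20 counts in si-SCR against 83, 59 and 54 in si-CyCoNP (log2 fold change 1.68, edgeR, adjusted p = 8.62e-06). All 4 together had 23 to 27 counts per si-SCR library and 63 to 85 per si-CyCoNP library, and the part of either marker list in the results on the antisense RNAs was not tested. In such bulk samples fewer cells of a type and less RNA per cell cannot be told apart. The labels do not say whether the replicates were separate cultures, and p-values then measure only the spread between these samples.

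Per length, most members were below their partner. The mean FPKM of a member ran from 1 to 29.7 with a median of 1.72, and the partner's FPKM was 3.33 times the member's at the median. The member was the higher one in 59 pairs, and in 43 it was at least 10 times lower. BCAN-AS2 had the highest mean, 29.7 FPKM, followed by GATA2-AS1 (26.6), PHKA2-AS1 (24), HAND2-AS1 (22.3), TBX2-AS1 (16.6) and OIP5-AS1 (12.1). GATA2-AS1, HAND2-AS1 and TBX2-AS1 accompany transcription factors of the sympathetic lineage, and OIP5-AS1 is the vertebrate-conserved RNA also known as cyrano. Just inside the threshold stood ZNF674-AS1 (1), LAMTOR5-AS1 (1.01) and PCF11-AS1 (1.01), and just outside it ZNF561-AS1 (0.996), MUC12-AS1 (0.98) and TRABD-AS1 (0.972).

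After CyCoNP knockdown 17 of the 187 members rose and 6 fell at an adjusted p under 0.05 (edgeR's quasi-likelihood test on the counts, Benjamini-Hochberg over all 13966 genes). Over all tested genes 14.2% passed as higher and 14.2% as lower. The members' shares were 9.09% and 3.21%, both under these, and of the 1261 other tested long noncoding RNA genes 8.17% passed as higher and 3.73% as lower. With a log2 fold change beyond 1 as well, 5 members were higher and 2 lower, against 2.28% and 2.98% of all genes. The 3 si-CyCoNP libraries lay above the 3 si-SCR libraries for 39 of the 187 members and below them for 10. Among all 13966 tested genes the groups lay apart in this way for 20.1% as higher and for 20% as lower. Of the 23 members that passed, 22 had groups that did not overlap, HIF1A-AS1 being the exception.

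The estimate was above 0 for 120 of the 187 members. It was above 0 for 732 of the 1261 other tested long noncoding RNA genes and for 7064 of all 13966 tested genes. The median log2 fold change of the members was 0.20, against 0.01 over all tested genes and -0.02 over the 145 tested partners. The other tested long noncoding RNA genes had a median of 0.17. At an unadjusted p under 0.05 (edgeR) stood 40 of the 187 members, and the share of all genes at that threshold is not given here. At the stricter adjusted threshold 14.2% of all tested genes passed as higher and 14.2% as lower. Of the 21 members with a si-SCR mean under 1 FPKM, 3 passed as higher, and of the 12 with a si-CyCoNP mean under 1 FPKM, 1 passed as lower. Each of these members met the rule only through the group where it was high, which favoured the direction of these calls. The calls are part of the 17 and the 6 above and carry no weight of their own. In 9 members a group stayed at or under 3 counts in each of its libraries, and no fold is given for these in the text.

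**Figure D1:**
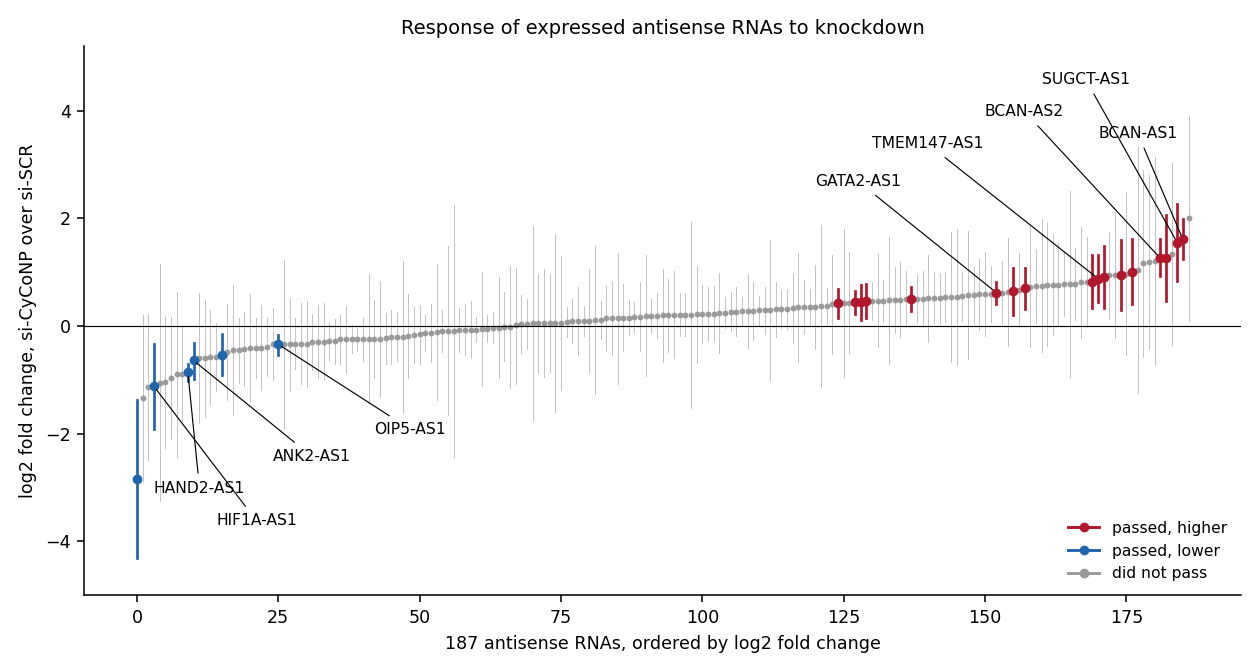
Log2 fold change of the 187 antisense RNAs (y axis, si-CyCoNP over si-SCR, edgeR) in order of size (x axis), each point with its 95% interval as a bar. Red marks the 17 that passed as higher, blue the 6 that passed as lower and grey the 164 that did not pass, many of them with wide intervals on either side of 0.

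GATA2-AS1 was the member that moved most clearly against its partner. GATA2 is a zinc finger transcription factor of haematopoietic and sympathetic neuron development, and GATA2-AS1 (chromosome 3, 128489212 to 128502970, plus strand) overlaps it by 3990 bases, of which 78 are exonic in both. GATA2-AS1 had 225, 227 and 312 counts in si-SCR against 495, 381 and 386 in si-CyCoNP. All si-CyCoNP counts were above all si-SCR counts, and in CPM (counts scaled to the TMM-normalised library size) the mean went from 60.7 ± 5.53 to 93.1 ± 7.06 (SD, n = 3 each). The log2 fold change was 0.62 ± 0.104 (SE, edgeR, adjusted p = 4.11e-05). GATA2 itself had 6745, 6044 and 6772 counts in si-SCR against 3940, 3160 and 3085 in si-CyCoNP (log2 fold change -1.06, edgeR, adjusted p = 9.26e-11). It was the single pair in which one RNA passed as higher and the other as lower.

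The ratio of both counts within a library, which does not depend on library size, was tested as well. GATA2-AS1 stood at 0.0334, 0.0376 and 0.0461 counts per GATA2 count in si-SCR against 0.126, 0.121 and 0.125 in si-CyCoNP. The ratio rose by 1.68 on the log2 scale with a standard error of 0.129 (limma, adjusted p = 1.21e-09 over 2776 opposite-strand pairs). The sense RNA remained the far more abundant one in all 6 libraries.

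HAND2-AS1 fell together with HAND2, the basic helix-loop-helix factor required for noradrenergic sympathetic neurons. HAND2-AS1 (chromosome 4, 173527270 to 173659696, plus strand) overlaps HAND2 by 2960 bases and had the most counts of any member, 12214 in all. It had 2637, 2425 and 2580 counts in si-SCR against 1763, 1443 and 1366 in si-CyCoNP. The groups were far apart, with 614 ± 66.4 CPM in si-SCR against 337 ± 18.6 in si-CyCoNP (SD, n = 3 each). The log2 fold change was -0.86 ± 0.0847 (SE, edgeR, adjusted p = 1.11e-08). HAND2 had 2931, 2680 and 3152 counts in si-SCR against 2218, 2087 and 1877 in si-CyCoNP (log2 fold change -0.61, edgeR, adjusted p = 4.96e-07). The antisense RNA stood at 0.9, 0.905 and 0.819 counts per HAND2 count in si-SCR against 0.795, 0.691 and 0.728 in si-CyCoNP, and the ratio fell by 0.25 on the log2 scale (limma, adjusted p = 0.0461). Without any 1 of 5 libraries (all but si-SCR replicate 3) the adjusted p of the ratio lay above 0.05, between 0.0535 and 0.196.

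ANK2-AS1, a gene inside ANK2 on chromosome 4 (112973272 to 113071962, minus strand), also fell with its partner, which encodes ankyrin-B, an adaptor between membrane proteins and the spectrin skeleton. ANK2-AS1 had 129, 115 and 99 counts in si-SCR against 91, 79 and 69 in si-CyCoNP, without overlap. The log2 fold change was -0.64 for ANK2-AS1 (edgeR, adjusted p = 0.00542) and -0.92 for ANK2 (edgeR, adjusted p = 4.18e-07), and no exon of one overlaps an exon of the other. The call of ANK2-AS1 was lost with limma on both FPKM scales (adjusted p = 0.0598 and 0.0604). The ratio changed by 0.28 with a standard error of 0.187 (limma, adjusted p = 0.304). ANK2-AS1 shares 3265 bases of its strand with the unnamed noncoding gene ENSG00000249373, so its count is less certain.

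OIP5-AS1 (chromosome 15, 41283958 to 41322392, plus strand) meets OIP5, a centromere protein gene, tail to tail. It had 674, 622 and 876 counts in si-SCR against 576, 600 and 648 in si-CyCoNP, which overlap as counts but not in CPM, where the mean went from 172 ± 10 to 136 ± 18.4 (SD, n = 3 each). The log2 fold change was -0.34 (edgeR, adjusted p = 0.00719), and that of OIP5, with 231 counts in all, was -0.66 (edgeR, adjusted p = 0.0498), a call lost in 10 of 14 alternative settings against 3 for OIP5-AS1. OIP5-AS1 is read far more than its partner, with 1730% of the partner's count. Its strand also carries the gene ENSG00000285920, which shares 38386 bases with it and had no count, so its own count is less certain.

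HIF1A-AS1 is a head to head partner of HIF1A, the oxygen-regulated subunit of the hypoxia-inducible factor. It had 11, 23 and 29 counts in si-SCR against 15, 7 and 9 in si-CyCoNP. The groups overlapped, and the call (log2 fold change -1.12, edgeR, adjusted p = 0.0385) was lost in 8 of 14 alternative settings. HIF1A, with 33098 counts, fell by 0.80 on the log2 scale (edgeR, adjusted p = 2.26e-08).

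HOXD-AS2 (chromosome 2, 176121611 to 176137098, minus strand) runs against 3 homeobox genes of the HOXD cluster and had 66, 59 and 81 counts in si-SCR against 50, 46 and 57 in si-CyCoNP. It fell by 0.53 on the log2 scale (edgeR, adjusted p = 0.0424), beside HOXD3 (-0.40), HOXD8 (-0.56) and HOXD9 (-0.71), which each passed, and its own call was lost in 8 of 14 alternative settings. Its counts did not overlap between groups.

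BCAN-AS1 had the largest increase among the members that passed, and BCAN-AS2, named for the same gene, rose too. BCAN encodes brevican, a proteoglycan of the brain's extracellular matrix, and was hardly read in these cells, with 13, 5 and 9 counts in si-SCR against 13, 10 and 17 in si-CyCoNP, so it was not tested. BCAN-AS1 (chromosome 1, 156637783 to 156641004, minus strand) had 30, 37 and 42 counts in si-SCR against 134, 130 and 96 in si-CyCoNP. BCAN-AS2 (156646507 to 156661424, minus strand) had 39, 50 and 76, then 151, 154 and 120. In both, the lowest si-CyCoNP count was above the highest si-SCR count. The log2 fold change was 1.61 ± 0.189 (SE) for BCAN-AS1 (edgeR, adjusted p = 1.95e-07) and 1.26 ± 0.177 (SE) for BCAN-AS2 (edgeR, adjusted p = 3.23e-06).

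Other genes on the strand of BCAN-AS1 and BCAN-AS2 rose as well. Upstream of both lies NES, the gene of nestin, an intermediate filament of neural progenitors. Its 3' end is 7339 bases from BCAN-AS2, and between BCAN-AS2 and BCAN-AS1 lies a further unnamed noncoding gene of that strand, ENSG00000272405. NES had 380, 428 and 720 counts in si-SCR against 1398, 1441 and 992 in si-CyCoNP (log2 fold change 1.23 ± 0.125, SE, edgeR, adjusted p = 1.95e-08). ENSG00000272405 had 97, 132 and 192 counts, then 392, 419 and 390 (log2 fold change 1.42 ± 0.138, SE, edgeR, adjusted p = 9.2e-09). All 4 genes of the minus strand in this stretch were higher in each si-CyCoNP library than in any si-SCR library. NES and its neighbours were noticed after the values of the members were seen. The FPKM of BCAN-AS2 rests on 758 annotated exonic bases within a gene of 14918 bases.

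**Figure D2:**
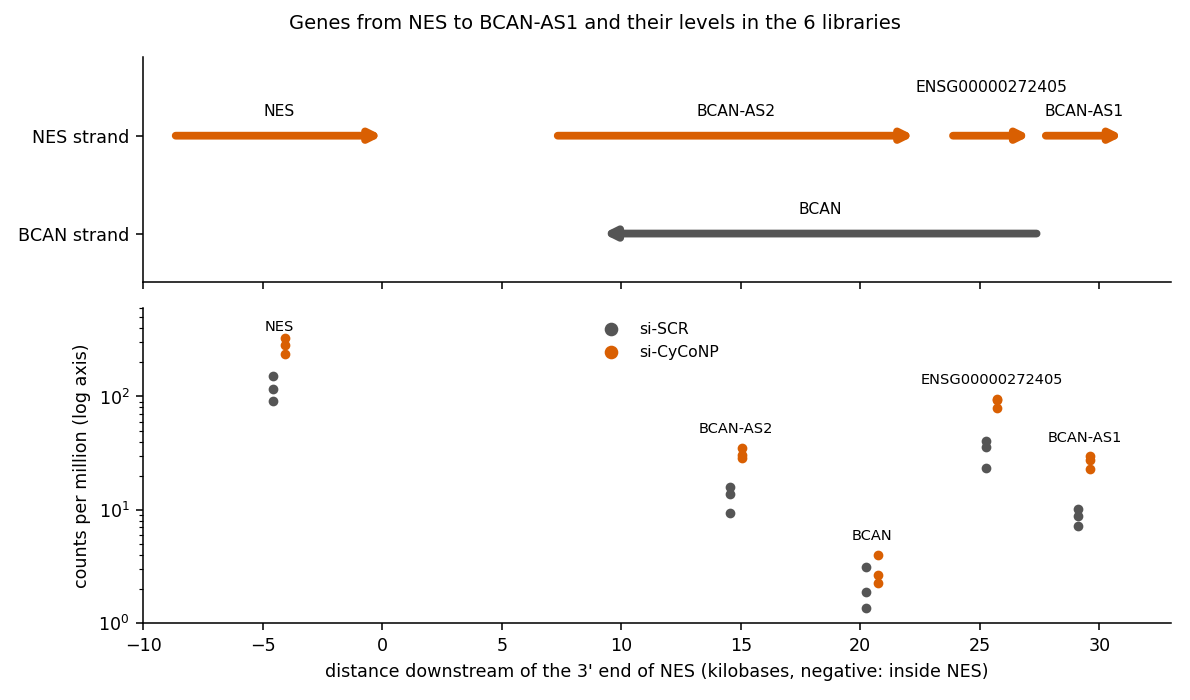
Upper panel: genes from NES to BCAN-AS1 as arrows in the direction of transcription, by distance from the 3' end of NES in kilobases (x axis). Lower panel: CPM in each library on a log axis, grey for si-SCR and orange for si-CyCoNP; the 4 genes on the strand of NES were higher in all 3 si-CyCoNP libraries, while the libraries overlapped for BCAN.

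A further 3 members passed with a log2 fold change above 1. SUGCT-AS1, inside the gene of a mitochondrial glutarate-CoA transferase, had 8, 7 and 11 counts in si-SCR against 38, 22 and 23 in si-CyCoNP (log2 fold change 1.55, edgeR, adjusted p = 0.00182). GJD3-AS1, which covers a connexin gene that had 4 counts in all, had 8, 6 and 9, then 18, 26 and 16 (1.27, edgeR, adjusted p = 0.0197), a call lost in 3 of 14 alternative settings. LIX1-AS1 had 11, 16 and 18, then 37, 33 and 28 (1.01, edgeR, adjusted p = 0.0135), and shares 32248 bases of its strand with another noncoding gene, which makes its count less certain. None of their partners was tested. The groups did not overlap in any of the 3, and the call of LIX1-AS1 was lost in 2 of 14 alternative settings.

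Head to head members that rose beside a partner that did not pass included TMEM147-AS1, SCAMP1-AS1, GTF3C2-AS2 and GABPB1-AS1. TMEM147-AS1 (chromosome 19, 35540738 to 35546029, minus strand) starts 403 bases from TMEM147, which encodes a membrane protein of the endoplasmic reticulum. It had 35, 28 and 44 counts in si-SCR against 63, 64 and 84 in si-CyCoNP, without overlap, and a fold change of 0.88 on the log2 scale (edgeR, adjusted p = 0.00296). TMEM147 had 223, 227 and 302, then 276, 258 and 253, a log2 fold change of -0.04 with a 95% interval of -0.25 to 0.18. The ratio rose by 0.90 on the log2 scale (limma, adjusted p = 0.00929), and without si-CyCoNP replicate 3 by 0.74 with an adjusted p of 0.0826.

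SCAMP1-AS1 starts 203 bases from SCAMP1, the gene of a secretory carrier membrane protein, and had 16, 18 and 22 counts in si-SCR against 43, 46 and 25 in si-CyCoNP. Its log2 fold change was 0.91 (edgeR, adjusted p = 0.0185) and that of SCAMP1 -0.11 with a 95% interval of -0.29 to 0.07. The groups of SCAMP1-AS1 did not overlap, but its call was lost in 6 of 14 alternative settings. The ratio rose by 0.97 on the log2 scale (limma, adjusted p = 0.0395), and without any 1 of 5 libraries (all but si-CyCoNP replicate 3) the adjusted p lay between 0.0529 and 0.188. GTF3C2-AS2, beside the gene of a subunit of the RNA polymerase III factor TFIIIC, had 56, 34 and 62, then 100, 98 and 67 counts, without overlap. It rose by 0.70 on the log2 scale (edgeR, adjusted p = 0.00762) while GTF3C2 changed by 0.17, with a 95% interval of 0.01 to 0.33 (edgeR, adjusted p = 0.135). GTF3C2 passed as higher in 3 of 14 alternative settings, and the ratio of this pair did not pass (0.54, limma, adjusted p = 0.0865). GTF3C2-AS2 overlaps GTF3C2 by 754 bases and a further gene of the opposite strand, EIF2B4, by 3271. EIF2B4 did not pass (log2 fold change -0.31, edgeR, adjusted p = 0.0872). GABPB1-AS1, beside the gene of a subunit of the ETS factor GABP, had 253, 203 and 290, then 444, 359 and 286, and overlapped as counts but not in CPM. Its log2 fold change was 0.44 (edgeR, adjusted p = 0.00361), against 0.14 for GABPB1 with a 95% interval of -0.11 to 0.40, and the ratio did not pass (0.27, limma, adjusted p = 0.256).

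PHKA2-AS1, which meets the gene of a phosphorylase kinase subunit tail to tail, had 143, 147 and 189 counts in si-SCR against 260, 241 and 227 in si-CyCoNP. The groups did not overlap, and the log2 fold change was 0.50 (edgeR, adjusted p = 0.00158). The remaining 6 members that passed as higher, TTN-AS1, ZNF213-AS1, PYDC2-AS1, DHRS4-AS1, FBXL19-AS1 and INO80D-AS1, had log2 fold changes from 0.42 to 0.95, with adjusted p from 0.0136 to 0.0432 (edgeR). They lie outside the naming rule and are listed to complete the 17. Of their partners TTN, the gene of the muscle protein titin, had 1 count in all.

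**Figure D3:**
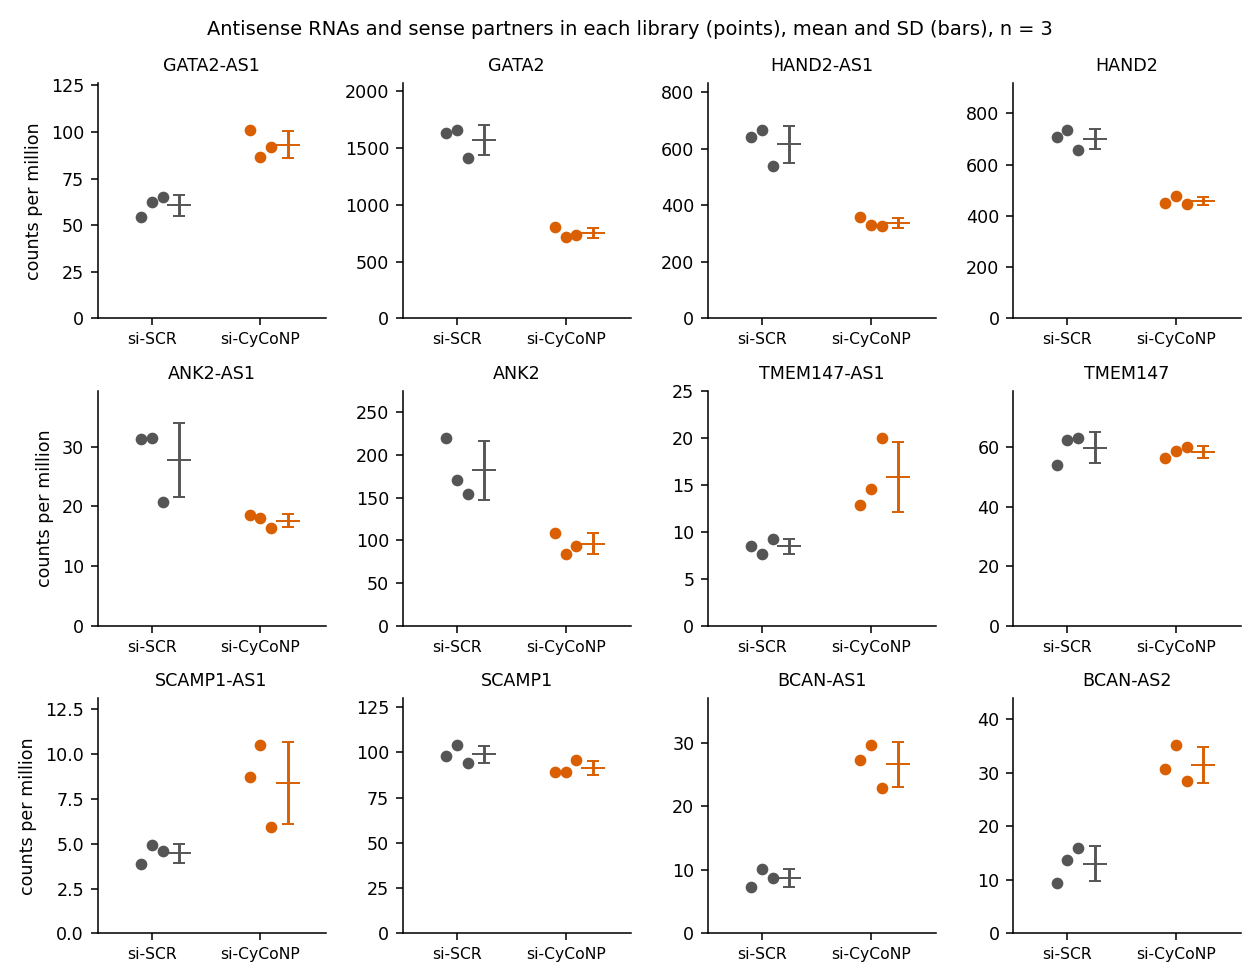
CPM (y axis, from 0, a scale of its own in each panel) of 7 antisense RNAs and 5 sense partners in each si-SCR library (grey points) and si-CyCoNP library (orange points), with the mean and SD of 3 libraries beside them. GATA2-AS1 rose while GATA2 fell, HAND2-AS1 and ANK2-AS1 fell with their partners, and TMEM147-AS1 and SCAMP1-AS1 rose beside partners whose groups overlapped.

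Among the partners, 25 of the 145 tested passed as higher and 33 as lower, 17.2% and 22.8%. Over all tested genes these shares were 14.2% and 14.2%, and over the tested protein-coding genes 17.3% and 18.1%. Of the 17 members that rose, 1 had a partner that fell, 10 had a partner that did not pass and 6 had a partner that was not tested. Of the 6 that fell, 5 had a partner that fell too and HOXD-AS2 had none. In 25 pairs the partner alone passed as higher and in 28 as lower, and in 77 neither passed. An RNA that did not pass is not thereby shown to be unchanged, since members were read less deeply than partners, with medians of 21.5 and 284 counts per library.

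Members beside transcription factors of the lineage are examples. TBX2-AS1 had 109, 85 and 79 counts in si-SCR against 83, 76 and 84 in si-CyCoNP, and a log2 fold change of -0.28 with a 95% interval of -0.63 to 0.07 (edgeR, adjusted p = 0.269). Without si-SCR replicate 3 it was -0.47 and passed (edgeR, adjusted p = 0.0391), and without si-SCR replicate 1 it was -0.12. TBX2-AS1 shares 6789 bases of its strand with another noncoding gene, so its count is less certain. Its partner TBX2, a T-box repressor, fell by 0.74 (edgeR, adjusted p = 1.38e-05). GATA3-AS1, inside GATA3, had 48, 14 and 54 counts, then 57, 40 and 47, and the groups overlapped. Its log2 fold change of 0.22 (95% interval -0.32 to 0.77) rested on the low si-SCR replicate 2, without which it was -0.10. GATA3 fell by 0.40 (edgeR, adjusted p = 0.0317), a call lost in 7 of 14 alternative settings, and its groups overlapped.

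GNAS-AS1, an imprinted antisense RNA at the gene of the stimulatory G protein alpha subunit, had 20, 25 and 28 counts in si-SCR against 40, 32 and 24 in si-CyCoNP. The groups overlapped and the log2 fold change was 0.28 with a 95% interval of -0.26 to 0.82 (edgeR, adjusted p = 0.494), while GNAS fell by 0.60 (edgeR, adjusted p = 6.25e-07). GNAS-AS1 shares 2721 bases of its strand with another noncoding gene, so its count is less certain. ZEB1-AS1, head to head with the gene of a repressor of epithelial genes, had 24, 17 and 29, then 21, 27 and 15 counts, with a 95% interval of -0.87 to 0.37 on the log2 scale. ZEB1 itself changed by 0.19 (edgeR, adjusted p = 0.167).

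**Figure D4:**
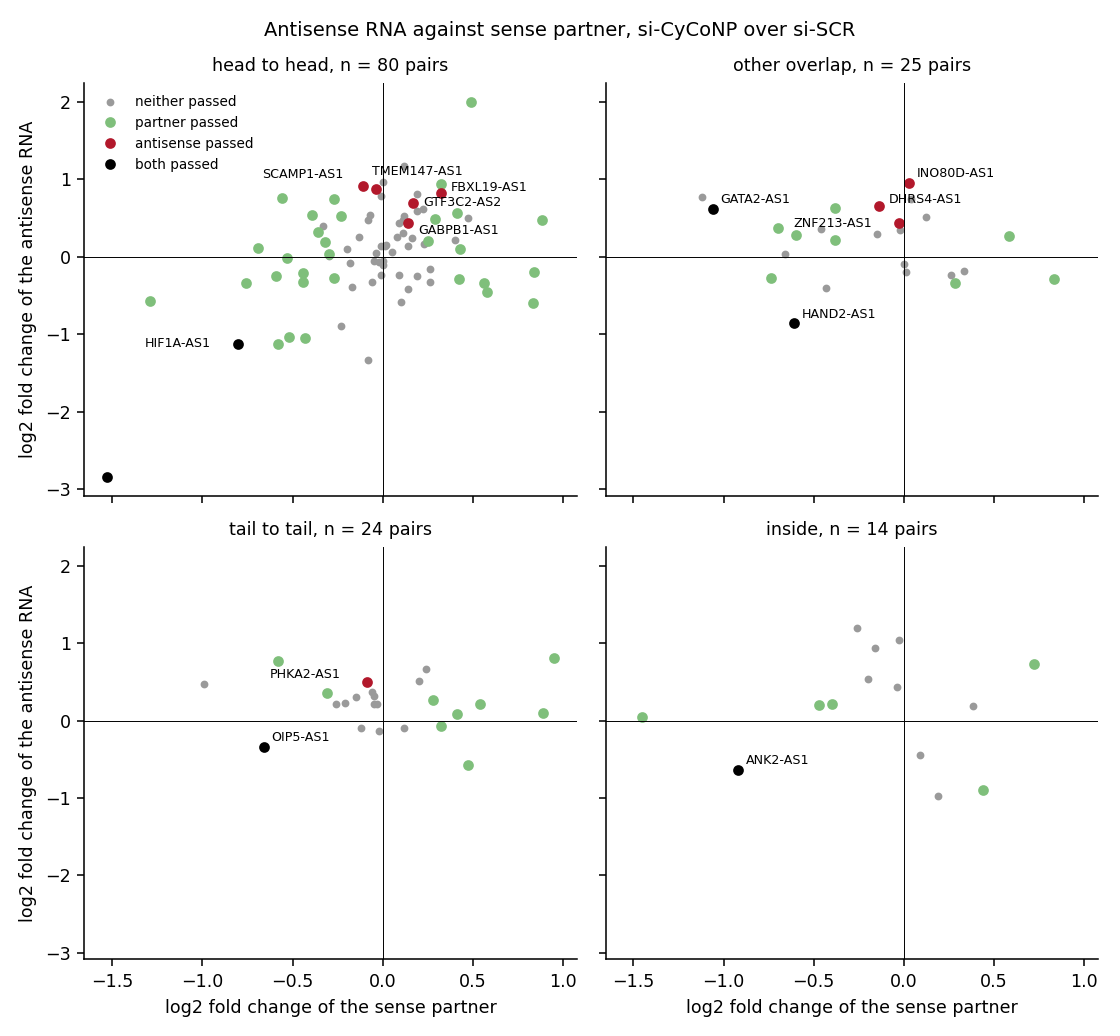
Log2 fold change of the antisense RNA (y axis) against that of its sense partner (x axis), si-CyCoNP over si-SCR, in a panel for each layout of the pair, with 80, 25, 24 and 14 pairs. Black points mark pairs in which both passed, red those in which the antisense RNA alone passed and green those in which the partner alone passed; GATA2-AS1 stands alone among the black points in lying above 0.

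Across the 80 head to head pairs with a tested partner, the log2 fold changes of both RNAs had Pearson's r = 0.44 and Spearman's rho = 0.28, and 0.30 and 0.26 without the pair whose antisense RNA had the largest decrease. They had the same sign in 50 of the 80. In the other layouts r was 0.02 (inside, 14 pairs), -0.19 (other overlap, 25 pairs) and -0.05 (tail to tail, 24 pairs), and the same sign was seen in 3, 7 and 10 pairs. These are descriptions across genes read in the same 6 libraries, and the difference between layouts was not tested.

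The ratio of antisense to sense counts could be tested in 143 member pairs, and it passed in 11 of them (7.69%). Over all 2776 opposite-strand pairs in which both genes were tested, 19.8% passed. Members had a median of 129 counts over the 6 libraries, against 654 over all tested genes. The part of depth in the lower share of member pairs was not tested. Among the 11 member pairs the antisense RNA was relatively higher in 8 and relatively lower in 3. The estimate was above 0 in 88 of the 143, with a median of 0.28. Beyond GATA2-AS1, TMEM147-AS1, SCAMP1-AS1 and HAND2-AS1, the ratio passed for pairs in which neither RNA or the partner alone did. FGF14-AS2, inside the gene of an intracellular fibroblast growth factor that modulates sodium channels, had 10, 7 and 10 counts in si-SCR against 12, 9 and 9 in si-CyCoNP. FGF14 had 148, 116 and 110, then 61, 51 and 37 (log2 fold change -1.45, edgeR, adjusted p = 1.23e-06), and the ratio rose by 1.49 (limma, adjusted p = 0.0295). Without any 1 of 5 libraries (all but si-SCR replicate 3) the adjusted p of this ratio lay between 0.0555 and 0.102.

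SLC16A1-AS1, head to head with the gene of the monocarboxylate transporter MCT1, had 55, 43 and 71 counts, then 74, 78 and 73, and SLC16A1 fell by 0.36 (edgeR, adjusted p = 0.000918). The ratio stood between 0.0389 and 0.0462 in si-SCR and between 0.0631 and 0.0731 in si-CyCoNP (limma, log2 change 0.68, adjusted p = 0.021). LBX2-AS1, beside a homeobox gene, had the largest change of the ratio, 1.95 (limma, adjusted p = 0.014), from counts of 6, 5 and 21, then 37, 10 and 12, which overlapped. ARRDC1-AS1 had 52, 52 and 65, then 83, 92 and 76 counts, with a ratio change of 1.58 (limma, adjusted p = 0.0205), and TMEM44-AS1 had 13, 6 and 11, then 17, 18 and 20, with 1.46 (limma, adjusted p = 0.028). For ARRDC1-AS1 and TMEM44-AS1 the si-CyCoNP counts were above the si-SCR counts. The partners had estimates below 0, and LBX2 had only 64 and ARRDC1 only 85 counts in all. LBX2-AS1 changed by 0.77 on the log2 scale and LBX2 by -1.12. ARRDC1-AS1 changed by 0.47 and ARRDC1 by -0.99, TMEM44-AS1 by 0.77 and TMEM44 by -0.58. Of these RNAs only TMEM44 passed (edgeR, adjusted p = 0.0372). The call of the ratio was lost with 1 library left out in 4 of 9 alternative settings each for SLC16A1-AS1 (without replicate 1 or 2 of si-SCR, or 2 or 3 of si-CyCoNP, adjusted p 0.0506 to 0.0865), ARRDC1-AS1 (the same libraries, 0.0605 to 0.114) and TMEM44-AS1 (replicate 2 or 3 of either group, 0.0541 to 0.194). That of LBX2-AS1 was lost in 3 (replicate 2 of si-SCR, or 1 or 3 of si-CyCoNP, 0.0608 to 0.0744).

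The other 2 pairs with a relatively lower antisense RNA were DDN-AS1 and PSMA3-AS1, named after their values were seen. DDN-AS1 had 24, 21 and 16, then 18, 23 and 13 counts while DDN, the gene of the postsynaptic protein dendrin, rose by 0.83 (ratio change -1.14, limma, adjusted p = 0.0423). PSMA3-AS1 had 195, 165 and 198, then 218, 182 and 173 counts while PSMA3, a proteasome subunit gene, rose by 0.32 (ratio change -0.40, limma, adjusted p = 0.0494). The counts of both antisense RNAs overlapped between groups. Of the 11 pairs, GATA2-AS1 with GATA2 passed in all 9 alternative settings of the ratio, and without si-SCR replicate 2 or si-CyCoNP replicate 3 only 2 of the member pairs passed.

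**Figure D5:**
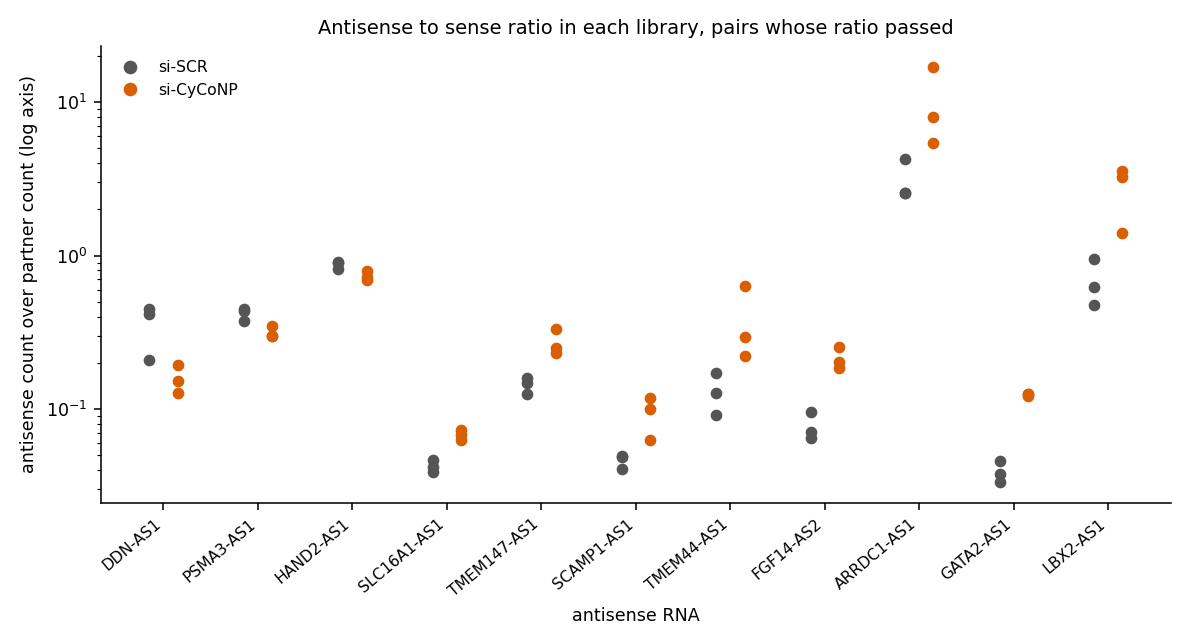
Count of the antisense RNA over that of its sense partner in each library (y axis, log axis, 0.5 added to each count) for the 11 pairs whose ratio passed, grey for si-SCR and orange for si-CyCoNP. The ratio was lower in si-CyCoNP for the 3 pairs on the left and higher for the 8 on the right, with the closest points within a group for GATA2-AS1 in si-CyCoNP.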

How the data were processed

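Per the labels and the study's methods, stranded, rRNA-depleted total RNA libraries were sequenced in pairs, trimmed with Trimmomatic 0.39 and cutadapt 3.2, cleared of rRNA with Bowtie2 2.4.2 and aligned to GRCh38 with STAR 2.7.7a, which counted uniquely mapped fragments per Ensembl 99 gene. The authors deposited these counts per gene and library, not normalised, and FPKM values. FPKM was used to select genes and to compare levels per length, and its gene lengths are not given in the sources used here. Counts were tested with edgeR 4.0.16 (R 4.3.3, TMM, quasi-likelihood, no covariate) over the genes with a mean of at least 1 FPKM in either group. Passed means an adjusted p under 0.05. Ratios were tested with limma 3.58.1 on log2 of the antisense over the partner count, 0.5 added to each. That fit ran over all opposite-strand pairs of tested genes that overlap or start within 5000 bases. Both were checked on simulated counts in which only genes above a minimum mean count were changed. The changes were of a single size, larger than those of most members that passed, with the same spread for all genes. That check does not show how well small changes, or changes of members with few counts, are found. Pair layouts come from GENCODE 44, not the release used for counting, and 60357 genes matched by identifier. The members, lists and tests were chosen with earlier results of these data known. Named were members called with a log2 fold change beyond 1, the 8 with the smallest p in each direction, the 6 at the highest FPKM, 3 on each side of the threshold, the 8 with the smallest p of the ratio, and those beside a list of neural partners. 1 member that passed is not reported here by name, and 1 further marker of other cells is not reported here. Replicate numbers were not taken to pair the libraries: same-numbered libraries deviated from their group means with r of 0.0907, 0.0727 and 0.108. The alternatives were DESeq2 1.42.0, other scalings and filters, limma on log2 FPKM, the replicate block and each library left out.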

Additional observations from a re-analysis of the deposited data

How the results depend on the processing

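The count of members that passed as higher (17) was 9 with DESeq2, and between 11 and 20 with 1 library left out, with the lowest value when si-SCR replicate 2 or si-CyCoNP replicate 1 was left out. The count that passed as lower (6) was 3 with limma on log2(FPKM + 1), also 3 when 0.1 was added in place of 1, and the count of partners that fell (33) was 20 on both scales. The members with a fold change beyond the minimum (7) were 4 with DESeq2, 4 with limma on log2(FPKM + 1) and 23 with no minimum fold change. The count of ratios that passed (11) lay between 2 and 11 with 1 library left out. It was 5 and 2 when si-SCR replicate 1 or 2 was dropped, and 6, 5 and 2 when si-CyCoNP replicate 1, 2 or 3 was. With the replicate block 19 ratios passed, and 23 members passed as higher and 7 as lower. In that check every library correlated best with its own number, a hint from the data and not from the design. The cause of these shifts was not tested.

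Among the named genes signs turned for 6. MUC12-AS1 gave -0.06 with limma on log2(FPKM + 0.1) and -0.33 to 0.83 with 1 library left out, FGF14-AS2 -0.04 to 0.14, GATA3-AS1 -0.10 to 0.43, and PHKA2 -0.34 to 0.10 with 1 library left out. TMEM147 gave 0.03 with library totals alone, 0.03 and 0.04 with limma on the FPKM scales, and -0.10 to 0.004 with 1 library left out. LAMTOR5 gave -0.002 with DESeq2, -0.001 with its size factors, and -0.06 to 0.08 with 1 library left out. The median over the members stayed between 0.17 and 0.27 in all settings; library totals alone gave 0.27 for the members and 0.07 for all genes. Depth limits the precision of a member's value, and 52 members had fewer than 60 counts in all.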

Other observations

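Antisense RNAs with other names were read in the same fit. Of 13 tested genes named with a bare -AS, OS, OT or OT1, 4 passed as higher and 0 as lower (edgeR, adjusted p under 0.05), against 14.2% and 14.2% of all tested genes, with a median log2 fold change of 0.35, and 1 more, IGF2-AS, had an unadjusted p of 0.0446 and a log2 fold change of -0.25. DNM3OS, which hosts microRNAs on the strand opposite to a dynamin gene, had a fold change of 0.77 on the log2 scale (edgeR, adjusted p = 0.00123). KCNQ1OT1, the imprinted antisense RNA of a potassium channel gene, had 0.36 (edgeR, adjusted p = 0.0344), and DNAH10OS 0.78 (edgeR, adjusted p = 0.000358). The groups of KCNQ1OT1 overlapped in CPM. Of the 4 that passed, 1 is not reported here by name.

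A further 24 antisense-named genes were tested although their mean over the 6 libraries was under 1 FPKM, since 1 group reached it. Of these 3 passed as higher and 3 as lower (edgeR), against 14.2% and 14.2% of all tested genes. A gene that enters through the group where it is high had to differ, so these counts carry no weight.

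Among the 20 members named for a zinc finger gene (ZNF, ZSCAN, ZBED, ZBTB, ZFHX or ZEB) 1 passed. Of all members 9.09% passed as higher and 3.21% as lower, and of all tested genes 14.2% and 14.2%. The estimate was above 0 in 14 of the 20, against 120 of the 187 members. Their median log2 fold change was 0.23, close to the 0.20 of all members.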
